A study of Mus musculus with 10 samples.

Results

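The fibroblast growth factor (FGF) pathway was described here through 32 genes: 20 FGF ligands, 4 receptors (Fgfr1 to Fgfr4) and 8 feedback genes that the pathway's own kinase cascade is known to switch on. They were taken by name from the 21938 protein-coding genes of the GENCODE M21 annotation of mm10, and all 32 were found there. The data came from F123, an embryonic stem cell line from an F1 cross of Mus musculus castaneus and S129/SvJae, grown with LIF and serum replacement on irradiated mouse embryonic fibroblasts and moved to gelatin without feeders for a single passage before harvest. No treatment or second genotype was compared, and the line is a hybrid of 2 mouse genomes read against the mm10 reference. Of the series' 10 samples, H3K4me3 ChIP-seq and ATAC-seq, with 2 biological replicates each, gave the peak lists used here. The 33487 H3K4me3 peaks carry a fold enrichment (the signal over local background at the peak's summit, as the peak caller wrote it). The 179109 ATAC-seq peaks are positions only. Each list stands for both replicates together, so no value below has a spread over samples, no test was possible, and the read depth behind the peaks is unknown.

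FGF ligands bind receptor tyrosine kinases together with heparan sulphate and pass the signal through adaptors to Ras and the ERK kinases. Mouse embryonic stem cells make FGF4 themselves, and this autocrine signal is known to bring them to the point of leaving the naive state. ERK activity induces genes that damp or carry on the signal: the Sprouty and Spred proteins hold back Ras and Raf, Dusp6 is a phosphatase that inactivates ERK, and Etv4 and Etv5 are ETS transcription factors. H3K4me3 is a histone mark of gene starts. In embryonic stem cells it lies at active starts and also, as a rule more weakly, at many CpG-rich starts of developmental genes that are not yet expressed. ATAC-seq marks DNA open to a transposase. Since neither file measures RNA, the ligands other than Fgf4 are called the other ligands here, not silent ones.

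For a first view of the starts themselves, 200 bases upstream of the principal start (the start of the transcript that APPRIS ranks first) are printed for 6 genes. Fgf4, Dusp6, Etv5 and Fgf5 had an H3K4me3 peak over the start. Fgf7 and Fgf23 had none within 2 kb. Capitals mark CpG dinucleotides, the letters are those of the RefSeq mm10 reference and not of the F123 alleles, and each runs 5′ to 3′ in the direction of transcription.
Fgf4 (chr7:144861186-144861385, plus strand, 20 CpG): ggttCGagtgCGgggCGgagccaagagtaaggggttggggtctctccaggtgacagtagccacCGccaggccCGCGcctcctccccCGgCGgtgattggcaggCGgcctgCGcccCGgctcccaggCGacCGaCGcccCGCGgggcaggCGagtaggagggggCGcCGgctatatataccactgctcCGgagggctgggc
Dusp6 (chr10:99263031-99263230, plus strand, 13 CpG): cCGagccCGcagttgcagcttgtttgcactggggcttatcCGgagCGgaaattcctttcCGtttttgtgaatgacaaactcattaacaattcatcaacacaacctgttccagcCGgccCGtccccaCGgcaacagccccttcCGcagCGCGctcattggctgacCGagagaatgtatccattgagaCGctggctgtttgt
Etv5 (chr16:22439720-22439919, minus strand, 12 CpG): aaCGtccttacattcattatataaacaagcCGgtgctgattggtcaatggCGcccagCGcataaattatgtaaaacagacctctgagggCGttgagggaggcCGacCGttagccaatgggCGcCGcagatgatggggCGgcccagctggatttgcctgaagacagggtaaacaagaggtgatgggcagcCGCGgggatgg
Fgf5 (chr5:98253984-98254183, plus strand, 19 CpG): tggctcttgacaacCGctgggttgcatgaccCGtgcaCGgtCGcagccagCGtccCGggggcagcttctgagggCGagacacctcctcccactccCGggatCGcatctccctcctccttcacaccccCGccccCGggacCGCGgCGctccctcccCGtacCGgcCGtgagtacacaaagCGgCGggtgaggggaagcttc
Fgf7 (chr2:126034458-126034657, plus strand, 5 CpG): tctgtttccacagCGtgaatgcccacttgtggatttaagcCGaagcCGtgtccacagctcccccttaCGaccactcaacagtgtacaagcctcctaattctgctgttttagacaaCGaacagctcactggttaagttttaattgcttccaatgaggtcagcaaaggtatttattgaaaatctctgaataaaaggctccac
Fgf23 (chr6:127072702-127072901, plus strand, 6 CpG): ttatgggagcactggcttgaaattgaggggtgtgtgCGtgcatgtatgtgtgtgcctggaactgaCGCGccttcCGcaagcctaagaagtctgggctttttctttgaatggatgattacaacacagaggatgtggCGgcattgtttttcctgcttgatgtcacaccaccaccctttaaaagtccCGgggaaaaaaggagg
The first 4 sequences hold 12 to 20 CpG dinucleotides, the last 2 hold 5 and 6. This split does not hold for all members. Fgf3, Fgf11 and Fgf17 also had an H3K4me3 peak over the start, yet the same stretch holds 2, 2 and 4. At Fgf6, which had no peak within 2 kb, it holds 6.

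Most of the pathway's starts were marked and open. With the start taken as the 5′ end of the annotated gene, 26 of the 32 genes had an H3K4me3 peak within 2 kb, against 66.4% of all protein-coding genes, and 30 had an ATAC-seq peak, against 74.6%. With the principal start, 28 had an H3K4me3 peak, against 67.0% of all protein-coding genes, and 30 had an ATAC-seq peak, against 74.9%. The 2 definitions name the same base in 18 genes, and in 9 the principal start lies over 2 kb further downstream. At Fgf20 the 5′ end sits 873 bp from the start of Micu3, and at Fgfr2, whose principal start is 2857159 bp away, it sits 1004 bp from that of Ctbp2. The fold enrichments read at those 5′ ends, 64.79 at Fgf20 and 49.2 at Fgfr2, came from peaks that cover the member's 5′ end. With a neighbour's start so close, they cannot be assigned to either gene alone. The values below are therefore those at the principal start, and counts are given for both definitions.

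All 8 feedback genes had peaks of both kinds within 2 kb under both definitions. Fgf4 had both at its principal start but no H3K4me3 peak within 2 kb of its 5′ end, which lies 14019 bp upstream. Of the other 19 ligands, 15 had an H3K4me3 peak at the principal start and 14 at the 5′ end. Under each definition 17 had an ATAC-seq peak, but not the same 17. Fgf6 had none under either, Fgf10 none at the 5′ end and Fgf1 none at the principal start. All 4 receptors had both. No member had H3K4me3 without an ATAC-seq peak. Among all protein-coding genes, 0.5% were of that kind.

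**Figure D1:**
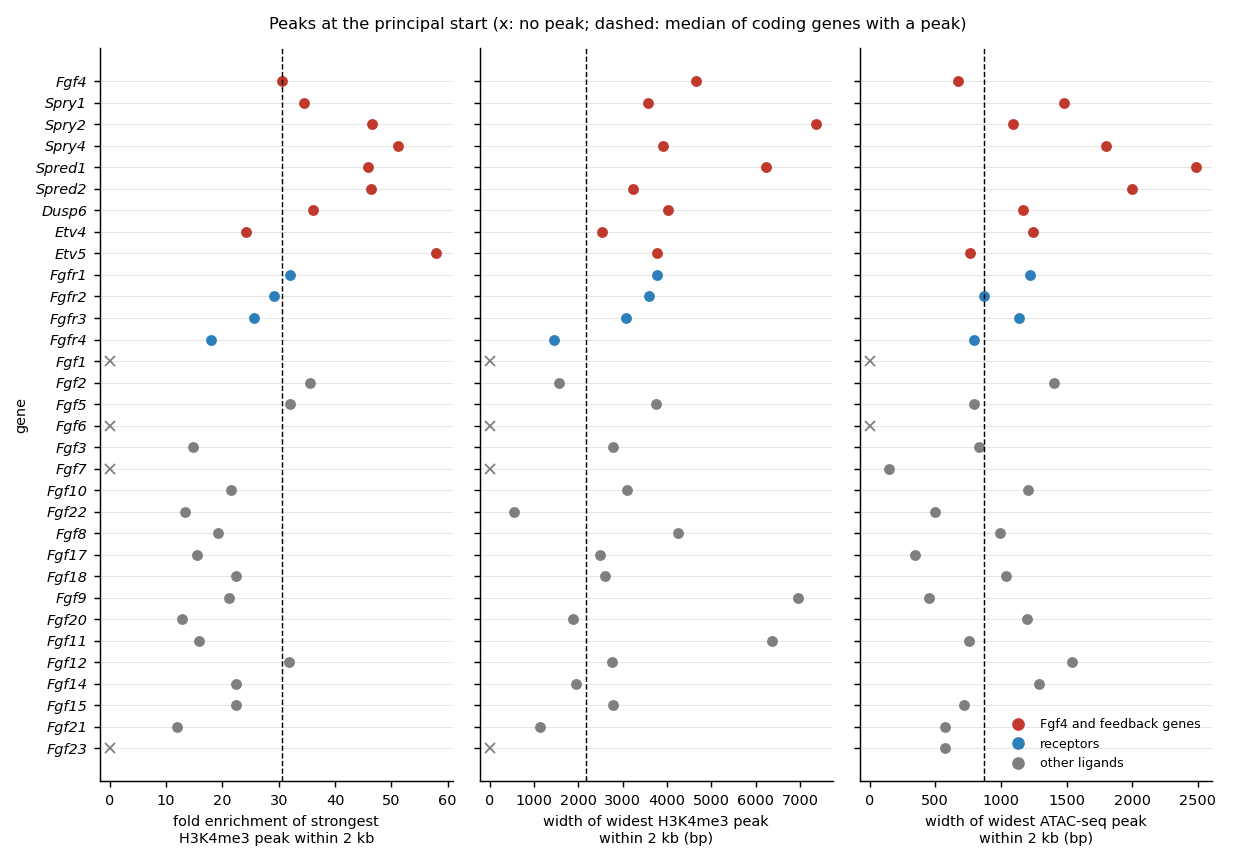
For each of the 32 genes (rows), the plot shows the fold enrichment of the strongest H3K4me3 peak (left), the width in bp of the widest H3K4me3 peak (middle) and the width in bp of the widest ATAC-seq peak (right) within 2 kb of the principal start. Crosses at 0 stand for no peak, and the dashed lines are the medians of coding genes with a peak (30.61, 2162 bp and 875 bp). The feedback genes (red) reach from 24.23 to 58.0 in fold enrichment, and 12 of the 15 other ligands with a peak (grey) lie left of the line.

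Fgf4 and the feedback genes carried stronger H3K4me3 peaks than most of the other ligands. The strongest peak within 2 kb had a median fold enrichment of 45.89 over Fgf4 and the feedback genes (range 24.23 to 58.0, 9 genes). Over the 15 other ligands with a peak the median was 21.17 (range 11.94 to 35.55), and over the 14700 coding genes with a peak it was 30.61. Thus 7 of the 9 lay above the coding-gene median, against 3 of the 15 other ligands. Of the 9, 6 (Spry2, Spry4, Spred1, Spred2, Dusp6 and Etv5) exceeded the highest other ligand, Fgf2. The ranges overlapped through Fgf4, Spry1 and Etv4 on the one side and Fgf2, Fgf5 and Fgf12 on the other. Without peaks nearer to another gene's principal start, the other ligands' median was 21.35 and the same number of genes, 6, lay above the highest of them. At the 5′ ends none did, since Fgf20 then reads 64.79. Leaving out peaks nearer to another gene's 5′ end kept that value, and again none lay above it. The other ligands' median was then 19.14.

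Widths separated the groups less. The widest H3K4me3 peak had a median of 3915 bp over Fgf4 and the feedback genes and 2769 bp over the other ligands with a peak, and 2162 bp over all coding genes with a peak. All 9 exceeded the coding-gene median, but so did 10 of the 15 other ligands, and only Spry2 exceeded the widest of these, Fgf9. The widest ATAC-seq peak within 2 kb had a median of 1245 bp in the first group and 796 bp over the 17 other ligands with one, against 875 bp over coding genes with one. Spry4, Spred1 and Spred2 exceeded the widest of the other ligands, Fgf12 at 1541 bp.

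Among the feedback genes, Etv5 had the highest fold enrichment of all 32 genes, 58.0, above 97.5% of coding genes with a peak (chr16:22437533-22441316, 3784 bp). Its partner Etv4 had the lowest of the feedback genes, 24.23, above 33.6% of them (chr11:101783716-101786252, 2537 bp). The ATAC-seq peaks ran the other way: 1245 bp at Etv4 and 768 bp at Etv5. These related ETS factors thus stood at opposite ends of the feedback genes in fold enrichment. In H3K4me3 width only Etv4 stood at an end, the narrowest, and in ATAC-seq width only Etv5 did, also the narrowest.

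The Sprouty genes, inhibitors of receptor signalling to Ras, ranged from 34.58 at Spry1 through 46.53 at Spry2 to 51.14 at Spry4. Spry2 had the widest H3K4me3 peak of the 32 genes, 7366 bp, wider than at 99.6% of coding genes with a peak (chr14:105892384-105899749). It reached 2930 bp upstream and 4435 bp downstream of the start. The start itself lay 145 bp outside the nearest ATAC-seq peak, which is 1090 bp wide and upstream of it. At Spry4 the H3K4me3 peak was 3915 bp wide and the ATAC-seq peak over the start 1798 bp.

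The Spred genes, which block the activation of Raf, had nearly equal fold enrichments, 45.89 at Spred1 and 46.46 at Spred2, but different surroundings. Spred1 had a 6244-bp H3K4me3 peak (chr2:117118647-117124890) around a 2486-bp ATAC-seq peak, wider than at 99.9% of coding genes with one, and nothing else of either kind within 20 kb. Spred2 had a 2000-bp ATAC-seq peak over the start and 12 ATAC-seq peaks within 20 kb, the most of the feedback genes. It also had a second H3K4me3 peak, 4.3 kb upstream, with a fold enrichment of 19.73 (chr11:19919225-19921059, between genes). That value lies within the range of the other ligands' start peaks.

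Dusp6, the ERK phosphatase, had 2 H3K4me3 peaks within 2 kb. The stronger, 4024 bp wide with a fold enrichment of 36.09 (chr10:99263169-99267192), began 62 bp upstream of the start and ran over the gene. The other, 2474 bp wide with a fold enrichment of 24.14, lay upstream of it. A 447-bp ATAC-seq peak covered the start and the gap between them, and the widest one, 1171 bp, lay 1.48 kb upstream inside the weaker H3K4me3 peak.

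**Figure D2:**
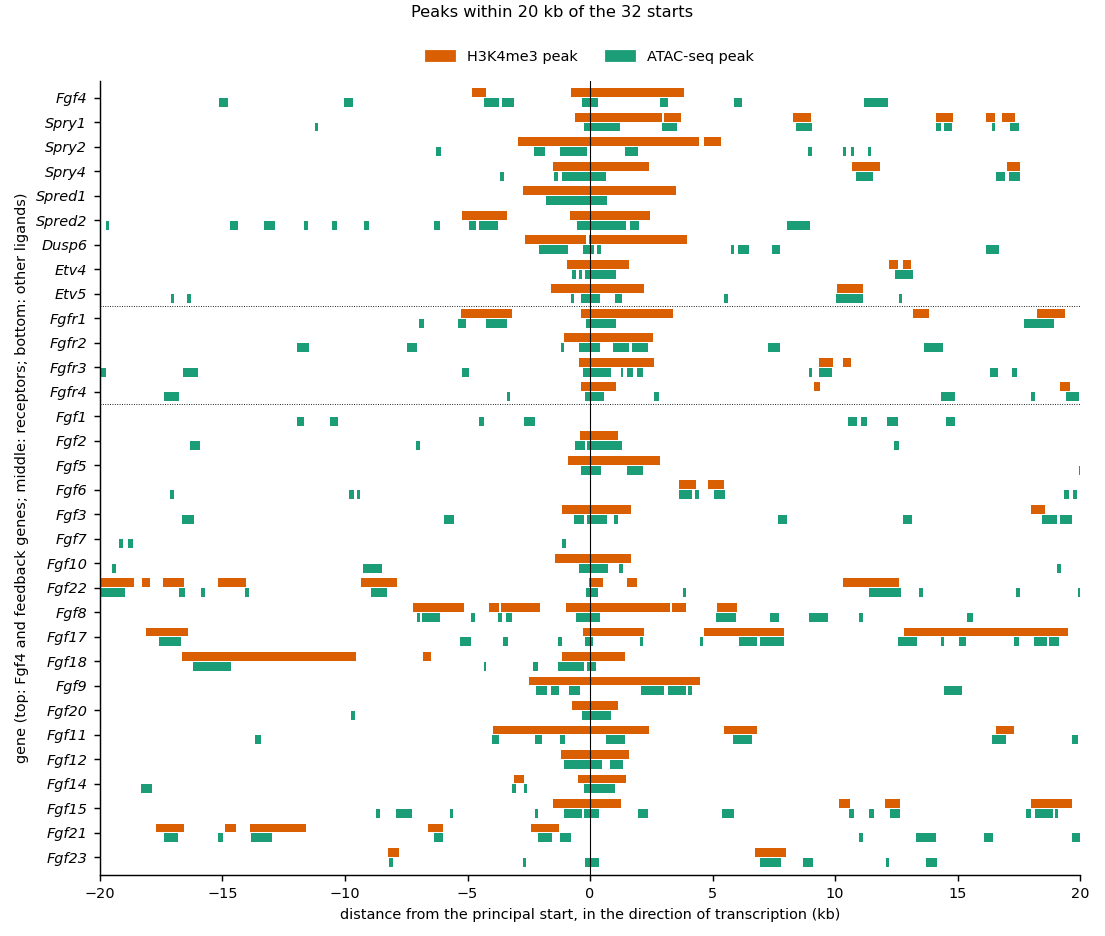
Each row is a gene, and bars show where H3K4me3 peaks (orange) and ATAC-seq peaks (green) lie within 20 kb of its principal start, with distance in kb in the direction of transcription. Spred1 has a single peak of each kind, Spred2 has 12 ATAC-seq peaks, and Fgf7 has no orange bar.

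Within 20 kb the median number of ATAC-seq peaks was 8 over Fgf4 and the feedback genes (range 1 to 12), 7 over the other ligands (range 2 to 15) and 5 over all coding genes. Without peaks nearer to another coding gene's start, counted at the gene 5′ ends, the medians were 7 for Fgf4 and the feedback genes and 4 for the other ligands. H3K4me3 covered a median of 5573 bases around Fgf4 and the feedback genes, 3364 around the other ligands and 2421 around all coding genes. At the gene 5′ ends the first of these was 6244 and the second again 3364. All 9 genes of the first group exceeded the coding-gene median, and 12 of the 19 other ligands did. Between 2 and 20 kb from the start, the feedback genes had 36 ATAC-seq peaks, none of them nearer to another coding gene's principal start, and 12 overlapped an H3K4me3 peak. The other ligands had 105, of which 41 were nearer to a gene outside the group, and 42 overlapped an H3K4me3 peak. Fgf17 had the most peaks within 20 kb, 15, and the most H3K4me3-covered bases of the 32 genes, 14124, but its neighbour Dmtn starts 6220 bp away.

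Several feedback genes had an ATAC-seq peak 8 kb or more downstream of the start that overlapped a weak H3K4me3 peak. At Etv5 a 1129-bp ATAC-seq peak 10.58 kb downstream, in an intron, overlapped an H3K4me3 peak of fold enrichment 6.71 (chr16:22428580-22429624). At Etv4 a 760-bp peak 12.8 kb downstream, also intronic, overlapped 2 H3K4me3 peaks of 6.06 and 3.79. At Spry4 a 732-bp peak 11.2 kb downstream overlapped one of 3.94, and a 441-bp peak 17.33 kb downstream overlapped one of 5.11. Beyond the end of Spry1, 4 H3K4me3 peaks between 8.65 and 17.08 kb downstream, with fold enrichments of 2.78 to 5.19, overlapped 5 ATAC-seq peaks. All of these lie below the median fold enrichment of the whole list, 8.93. At Spry2 the 4 ATAC-seq peaks between 8.97 and 11.4 kb downstream overlapped no H3K4me3 peak. Such overlaps were not particular to the feedback genes. Fgfr3 had one 9.6 kb downstream (fold enrichment 5.27), and Fgf15 had them 10.68 and 12.45 kb downstream (3.19 and 4.5), nearer to LTO1. Between 2 and 20 kb, 12 of 36 ATAC-seq peaks overlapped H3K4me3 at the feedback genes, 42 of 105 at the other ligands and 5 of 21 at the receptors. These counts are broader than the overlaps above, as they take either side of the start and any fold enrichment. They also take in neighbours' peaks: 41 of the 105 and 1 of the 21 were nearer to a gene outside the group, against none of the 36. The share over all coding genes was not computed.

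Fgf4, the ligand that embryonic stem cells make, had a single H3K4me3 peak at its principal start (chr7:144860589-144865240). Its fold enrichment, 30.59, was close to the coding-gene median and below that of 7 feedback genes. At 4652 bp it was wider than at 95.9% of coding genes with a peak. It ran from 797 bp upstream to 3854 bp downstream of the start, so that it ended just inside the annotated end of the gene at 144865243. The ATAC-seq peak at the start was 673 bp wide, narrower than at most coding genes with one (26.9% were narrower).

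Within 20 kb of its start Fgf4 had 8 ATAC-seq peaks. Upstream they lay at 3.36, 4.04, 9.84 and 14.96 kb, the second of them overlapping a weak H3K4me3 peak of fold enrichment 2.49. Downstream, a 304-bp peak lay 3.02 kb from the start in the 3′ UTR, inside the broad H3K4me3 peak, and others at 6.06 kb (327 bp) and 11.67 kb (1000 bp) between genes. The 3′ UTR of Fgf4 is known as the site of an enhancer at which Sox2 and Oct4, an HMG-box and a POU factor, bind side by side. Its letters were searched for here because that element is known, so the match is not an independent finding. TTTGTT followed after 3 bases by ATGCTAAT was found in 3 of 178722 windows of 300 bases around ATAC-seq peaks on all chromosomes searched (0.00168%), and the 304-bp peak is 1 of these 3.

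**Figure D3:**
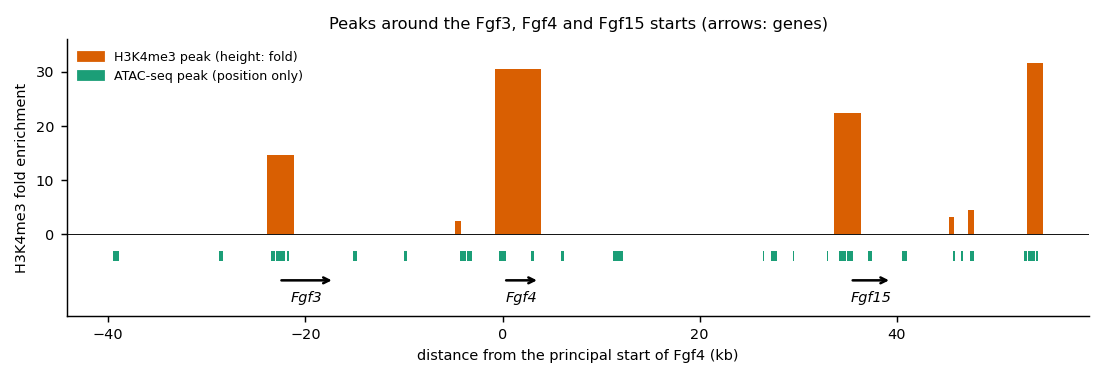
Peaks around Fgf3, Fgf4 and Fgf15, by distance in kb from the principal start of Fgf4, with H3K4me3 peaks as orange blocks whose height is the fold enrichment and ATAC-seq peaks as green ticks with no height. Fgf4 stands at 30.59, Fgf15 at 22.38 and Fgf3 at 14.72, and the block at the right edge is the start of LTO1 at 31.6.

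The sequence of that site is printed with an Esrrb site in the Fgf4 peak 9.84 kb upstream and POU octamers (ATGCAAAT) in ATAC-seq peaks upstream of 2 feedback genes. Esrrb is a nuclear receptor of naive stem cells. The first sequence shows the Sox site and the POU variant in capitals, the second the Esrrb letters, the others the octamer. All are from the RefSeq mm10 reference.
Fgf4, 3′ UTR (chr7:144864389-144864417, plus strand): aaactcTTTGTTtggATGCTAATgggata
Fgf4, upstream (chr7:144851366-144851386, minus strand): aacagcTCAAGGTCAcctgcc
Dusp6, upstream (chr10:99261476-99261495, plus strand): ttaaaaATGCAAATtgcttt
Spred2, upstream, first copy (chr11:19915374-19915393, minus strand): tgagatATGCAAATgaggta
Spred2, upstream, second copy (chr11:19915300-19915319, minus strand): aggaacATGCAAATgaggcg
Spred2, upstream, nearer peak (chr11:19918153-19918172, minus strand): ttagttATGCAAATgtaggg
The first Spred2 peak, 9.14 kb upstream, holds 2 octamers and the nearer one, 6.26 kb upstream, holds 1. Another Spred2 octamer, not printed, lies 924 bp downstream of the start, in the ATAC-seq peak over it. In windows of 300 bases centred on the peaks within 20 kb of the 32 principal starts, 8 of 226 held the octamer (3.54%), against 3.55% of all 178722 windows, a near-equal share. Of the 8, 2 are the Spred2 windows, and the other 6 lie near Fgf8, Fgf14, Fgf17 (2 windows), Fgfr1 and Fgfr4. The Dusp6 octamer, the downstream Spred2 octamer and the Fgf4 Esrrb site lie outside the central window of their peaks. Searched in the same way on both strands, the variant ATGCTAAT was in 3 of the 226 windows (1.33% against 1.96% of all), the ETS letters CCGGAAGT in 1 (0.44% against 0.999%), the STAT letters TTCCNGGAA in 2 (0.88% against 1.01%), the CRE letters TGACGTCA in 2 (0.88% against 0.55%) and the Esrrb letters TCAAGGTCA in none (against 0.85%). The arrangement printed first is counted under the variant as well. Of the STAT matches, 1 lies in the intronic Etv5 peak 10.58 kb downstream. In the promoters of the 32 genes (250 bases before to 50 after the start) only the variant was found, once, at Fgf20. Of all 21938 coding-gene promoters, 0.77% held the variant and 1.6% the octamer. The ETS letters were in 5.01%, CRE in 2.51%, STAT in 1.16% and Esrrb in 0.397%. At such shares, 32 promoters are too few to read a missing match as a trait of these genes. A match of letters is not a measured binding site.

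Fgf4 lies between 2 other ligands, Fgf3 and Fgf15, on chromosome 7, and the 3 starts were marked unequally. Fgf3, which acts in the inner ear and tail, had a fold enrichment of 14.72 (2791 bp) and Fgf15, the gut hormone of bile acid control, 22.38 (2783 bp). Both peaks were weaker and narrower than that of Fgf4, while their widest ATAC-seq peaks, 836 bp and 717 bp, were wider than its 673 bp. Fgf15 had 14 ATAC-seq peaks within 20 kb, some of them nearer to LTO1, which starts 18569 bp away.

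The closest relatives of Fgf4, Fgf5 and Fgf6, differed. Fgf5, a marker of the primed epiblast that follows the naive state, had a fold enrichment of 32.05 over 3753 bp (chr5:98253302-98257054), slightly stronger than Fgf4, with a 796-bp ATAC-seq peak. Fgf6, a muscle ligand, had neither mark within 2 kb. Its nearest H3K4me3 peak was 3618 bp downstream, the nearest beyond the 2-kb limit, and 2 weak intronic peaks there had fold enrichments of 3.77 and 3.0. Just inside the limit was Fgf21, the liver hormone, whose nearest H3K4me3 peak was 1253 bp away, had a fold enrichment of 11.94 and covered the start of Fut1, 1799 bp from that of Fgf21. This was the lowest value of the 28 and the only peak of them that did not cover the start.

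Fgf2, the ligand commonly added to primed pluripotent cells, had the highest fold enrichment of the other ligands, 35.55, over a narrow peak of 1563 bp and a wide ATAC-seq peak of 1404 bp. Its relative Fgf1 had neither within 2 kb of its principal start, with the nearest H3K4me3 peak 73317 bp away. At its 5′ end, 10701 bp upstream, it had 2 ATAC-seq peaks within 2 kb and no H3K4me3 peak. Around the principal start Fgf1 had 8 ATAC-seq peaks within 20 kb, none of which overlapped H3K4me3.

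In the Fgf7 group, whose ligands act from mesenchyme on epithelium, Fgf10 had 21.52 over 3096 bp and Fgf22 had 13.42 over 551 bp, the narrowest start peak of the 28. Fgf7 had no H3K4me3 within 71850 bp and a 152-bp ATAC-seq peak 1.07 kb upstream. At Fgf22, 8 H3K4me3 peaks lay within 20 kb, the strongest of them, 44.98, nearest to Rnf126.

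The 3 ligands of the Fgf8 group, which pattern the gastrula, brain and limb, all had H3K4me3 at the start, at 19.14 (Fgf8, 4248 bp), 15.53 (Fgf17, 2482 bp) and 22.45 (Fgf18, 2605 bp). They lay above 17.0% to 29.5% of coding genes with a peak. Each has a close neighbour: Npm3 6717 bp from Fgf8 with a peak of 44.64, Npm1 15806 bp from Fgf18 with one of 39.93 over 7131 bp, and Dmtn beside Fgf17. The neighbours' start peaks at Fgf8 and Fgf18 were thus stronger than those of the ligands.

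Fgf9, which acts in gonad and lung, had a peak of 21.17 that was 6953 bp wide, wider than at 99.5% of coding genes with one (chr14:58070205-58077157). It held 6 ATAC-seq peaks, none over the start, the nearest 397 bp away. Fgf20 had 12.79 over 1883 bp at its principal start. Breadth and fold thus ran apart at Fgf9, as they did at Fgf11, where a peak of 15.78 was 6367 bp wide.

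Fgf11, Fgf12 and Fgf14 encode intracellular relatives that bind sodium channels and are not secreted. Fgf12 had 31.88 over 2769 bp and the widest ATAC-seq peak of the other ligands, and Fgf14 had 22.38 over 1958 bp. For both, the principal start lies far inside the annotated gene, 306791 bp and 484225 bp downstream of its 5′ end, where the fold enrichments were 9.97 and 10.62. The 5′ end and the principal start of each were thus unequally marked. At Fgf12 the highest value was at another coding start, 188117 bp downstream of the 5′ end, with 35.41 over 1435 bp.

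Fgf23, the bone hormone of phosphate balance, had an open start without H3K4me3: a 578-bp ATAC-seq peak over it and no H3K4me3 peak for 6732 bp. The nearest one was strong, with a fold enrichment of 24.76, and lay 7.36 kb downstream over coding sequence of the gene (chr6:127079634-127080884) together with an 841-bp ATAC-seq peak. No coding gene other than Fgf23 starts nearer to it. Among all coding genes, 8.4% had an ATAC-seq peak within 2 kb and no H3K4me3.

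The receptors had a median fold enrichment of 27.32, between the medians of the other ligands (21.17) and the feedback genes (46.17). All 4 values nevertheless lay inside the range of the other ligands, 11.94 to 35.55. Fgfr1, the main FGF receptor of mouse embryonic stem cells, had 31.96 over 3766 bp (chr8:25518381-25522146), Fgfr2 29.08 over 3593 bp, Fgfr3 25.55 over 3067 bp and Fgfr4 18.06 over 1448 bp. The order of fold enrichment and of width was the same, from Fgfr1 down to Fgfr4. Only Fgfr1 exceeded the coding-gene median of 30.61, and all but Fgfr4 exceeded the median width. Fgfr1 also had a second marked start 5105 bp upstream, at its 5′ end, with a peak of 14.7 over 2078 bp, and a peak of 9.68 with a 1209-bp ATAC-seq peak 18.3 kb into the gene.

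The 4 members without H3K4me3 within 2 kb were poor in CpG. In the 1 kb around the principal start, the observed over expected CpG ratio was 0.18 at Fgf23, 0.19 at Fgf1, 0.38 at Fgf7 and 0.41 at Fgf6. The 28 with a peak ranged from 0.24 to 1.01. The lowest of them, Fgf21, is the one whose peak did not cover the start, and the next was Fgf17 at 0.4. Fgf4 and the feedback genes had a median of 0.82 (range 0.68 to 1.01), the other ligands with a peak 0.6, and the receptors 0.75. Over all coding genes the median was 0.72 with a peak and 0.16 without, a difference in the same direction. Rich starts were not always strongly marked: Fgf9 at 0.97 and Fgf18 at 0.92 had fold enrichments of 21.17 and 22.45, while Spred2 at 0.68 had 46.46.

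**Figure D4:**
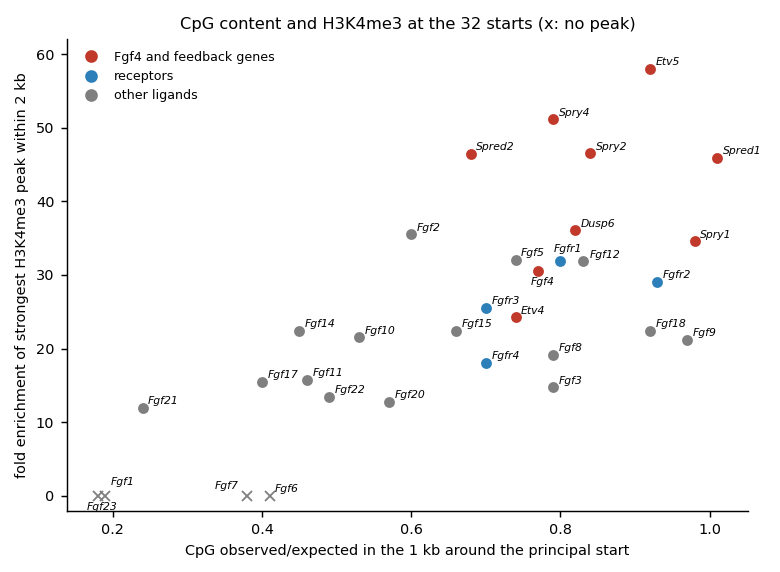
Each point is a gene, with the CpG observed/expected ratio of the 1 kb around its principal start on the horizontal axis and the fold enrichment of the strongest H3K4me3 peak within 2 kb on the vertical axis. Crosses at 0 are the 4 genes without a peak, at ratios of 0.18 to 0.41, and at ratios above 0.9 the fold enrichment runs from 21.17 (Fgf9) to 58.0 (Etv5).

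Nearly all of the rest of the pathway was marked. All 19 adaptor and ERK cascade genes (among them Frs2, Grb2, Ptpn11 and Braf) had H3K4me3 and ATAC-seq peaks within 2 kb, and so did 10 of 11 further ligands and feedback genes, such as Dusp4, Etv1 and Spred3, with Spry3 not matched among the genes used. Of 13 co-receptors and heparan sulphate enzymes, 12 had both. The exception was Klb, the co-receptor that Fgf21 and Fgf15 need, which had neither. By the same measure 67.0% of coding genes had H3K4me3.

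Markers of the cells themselves were checked in the same way. All 10 embryonic stem cell markers, Pou5f1, Sox2 and Nanog among them, had H3K4me3 at the principal start, and 9 did at the 5′ end. Of 10 markers of feeder fibroblasts, 7 had it, a share near the 67.0% of all coding genes, and Col3a1, Postn and Lum did not. Of the 7, Dcn had only a 271-bp peak with a fold enrichment of 3.39, below the median of the whole list, 8.93. All 5 markers of primitive endoderm, the lineage that FGF signalling favours in the blastocyst, had H3K4me3 too, Gata4, Gata6 and Sox17 among them. Pdgfra counts in this list and in the fibroblast list. A mark at a fibroblast gene can come from the stem cells as well as from feeder cells, and the contribution of feeder cells to the peaks of the 32 genes was not tested.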

How the data were processed

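H3K4me3 ChIP-seq and ATAC-seq peaks were taken from F123 cells. For H3K4me3, reads of 2 replicates went through ENCODE's histone ChIP-seq pipeline at default settings, run by the authors. Its deposited columns include a display score, a fold enrichment (a ratio) and −log10 p and q values. The scores and p-values were not used. For ATAC-seq the authors mapped reads to mm10 with Bowtie 1.1.2, removed duplicates and mitochondrial reads, moved read ends for the transposase, called peaks with MACS2 2.1.1.20160309 and kept those in both replicates with bedtools 2.27.1. Read counts and depth were not analysed here, and the PLAC-seq and input samples were not used.

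Windows of 2 kb and 20 kb around each start were overlapped (1 bp or more) with the peaks in Python 3.11.15 with pandas 2.3.3, after the overlap code was tested on simulated intervals. Starts came from GENCODE M21, as the gene's 5′ end or as the APPRIS principal start. Of the 21938 coding genes, 87 had no APPRIS tag and kept the 5′ end. Sequence came from the RefSeq mm10 genome, whose chromosome ends no peak passed. Every member is named, by role. The members and lists were chosen with earlier results of these data known.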

Additional observations from a re-analysis of the deposited data

How the results depend on the processing

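Of 83 alternative values of the 11 counts and medians, 73 stayed within 1.5 times the value at the gene 5′ ends. Windows of 50 kb gave medians of 19 (Fgf4 and feedback genes) and 15 (other ligands) ATAC-seq peaks and 9431 and 6309 H3K4me3-covered bases, and windows of 10 kb gave 4 and 4 ATAC-seq peaks, as larger and smaller windows must. The widest 50% of the ATAC-seq peaks also gave 4 and 4. Without peaks nearer to another coding gene, the other ligands' medians fell to 4 ATAC-seq peaks and 2176 bases, while those of Fgf4 and the feedback genes were 7 and 5573. No paired analysis was possible because each list stands for both replicates, and leaving out a replicate could not be done for the same reason. The depth of the libraries, and so what a missing peak means, is unknown.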
